A study of Mus musculus with 34 samples.

Results

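The cytoplasmic ribosome is built from ribosomal RNA and a set of ribosomal proteins, each encoded by a gene of its own. The genes described here were taken by symbol: every row named Rpl or Rps followed by a number, alone or with a single a, x or l, together with Rplp0, Rplp1, Rplp2 and Rpsa, and without symbols ending in -ps. This gave 83 genes of 58071 symbols listed at any stage, of which 32 belong to the small subunit, 48 to the large subunit and 3 to its stalk. All 83 were listed for zygotes and late 2-cell embryos, and 82 for blastocysts, where Rpl32l was not listed. Other ribosomal protein genes with differently built symbols, such as Rps3a1 and Fau, fall outside the rule and were followed as a separate list.

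Ribosomal proteins are made in the cytoplasm, imported into the nucleolus, assembled with ribosomal RNA and exported as small and large subunits. Their mRNAs are short and abundant in growing cells, and most begin with a C followed by a run of pyrimidines, the 5′ terminal oligopyrimidine (TOP) tract, through which mTORC1 and LARP1 regulate their translation. A mouse oocyte stores ribosomes and maternal mRNA, and the embryo starts to transcribe its own genome between the zygote and the late 2-cell stage.

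The embryos came from early mouse zygotes that were injected with mRNA for CHK1, a kinase of the DNA damage checkpoint, either wild-type (WT) or the R442Q mutant. Each library was made from a single embryo with its zona pellucida removed, by SMART-seq2 (which primes on poly(A) tails, so that the values are of polyadenylated RNA), and fragmented with Tn5. There were 5 WT and 6 R442Q zygotes, and 4 WT and 5 R442Q late 2-cell embryos, all labelled as untreated and grown in KSOM medium. The 7 WT and 7 R442Q blastocysts were all grown with a CHK1 inhibitor at 30 nM, so that stage and inhibitor cannot be told apart. No group without injection was used here, and every embryo carried its own Chek1 gene beside the injected mRNA. The labels do not say how many females, matings or injection days the embryos of a group came from, so the p-values measure the spread between single embryos, which may be partly technical.

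Total counts ran from 7183632 to 11296522 per zygote and from 5727956 to 8916343 per late 2-cell embryo. For blastocysts only FPKM (fragments scaled to transcript length and library size) was used, and their depth is unknown. Summed FPKM of 7 oocyte and zygote markers was 3610 to 7850 in zygotes, 1230 to 6920 in late 2-cell embryos, which overlapped the zygotes, and at most 4.28 in blastocysts. The 7 listed late 2-cell markers summed to 101 to 306 in zygotes, 110 to 2860 in late 2-cell embryos and at most 3.99 in blastocysts. By these markers replicate 2 of the WT late 2-cell embryos (110) lay within the range of the zygotes, and the other late 2-cell embryos lay above it. The same embryo had the lowest oocyte marker sum of all late 2-cell embryos (1230, below every zygote) and the highest ribosomal protein share of the WT late 2-cell embryos (5.45% of summed FPKM). Replicate 3 of the R442Q late 2-cell embryos stood apart, with 16211 symbols at FPKM 1 or more where the other late 2-cell embryos had 11984 to 14210. It also had the highest sum of oocyte markers of its stage (6920) and the highest sum of cumulus cell markers (28.6, against 0.21 to 13.7).

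Of the 83 genes, 61 were found in RefSeq's promoter table (build GRCm38.p6), with 73 annotated starts. At 14 of the 73 starts (19.2%) the first annotated base was a C followed by C or T to a run of at least 5 bases, against 2.51% of 32851 promoters of all genes. The windows printed here run from 10 bases before the annotated start to 20 bases from it, and show this feature in Rps6 and Rpl35, as clear examples of a run, and the same window in members that the results name. Capitals mark the pyrimidine run from the first transcribed base, and a window without capitals holds no such run at that position.
Rps6, chr4:86857348-86857377, minus strand: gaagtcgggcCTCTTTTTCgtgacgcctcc
Rpl35, chr2:39005112-39005141, minus strand: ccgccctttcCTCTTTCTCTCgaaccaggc
Rps15a, chr7:118116128-118116157, minus strand: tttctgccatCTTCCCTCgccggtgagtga
Rps27, chr3:90213629-90213658, minus strand: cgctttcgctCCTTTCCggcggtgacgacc
Rps27l, chr9:66946076-66946105, plus strand: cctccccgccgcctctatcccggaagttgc
Rpl39, chrX:37085203-37085232, minus strand: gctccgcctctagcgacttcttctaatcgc
Rpl39l, chr16:10170218-10170247, plus strand: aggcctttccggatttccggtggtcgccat

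The ETS factor motif CCGGAAG, searched on both strands of the 300-base promoters, was in 26 of the 73 (35.6%) and in 8.86% of all promoters. The YY1 motif AAGATGG was in 11 of the 73 (15.1%) and in 6.34% of all. These are matches of letters near annotated starts, which can lie some bases from the starts used in an embryo. For the 14 genes with a run at an annotated start and the 47 without one, the median FPKM was 30.6 and 30.8 in WT zygotes, 284 and 311 in WT late 2-cell embryos, and 1797 (13 genes) and 1268 in WT blastocysts. The median log2 change from WT zygote to late 2-cell was 2.81 (13 genes) and 3.16. The difference between these sets of genes was not tested.

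Ribosomal protein mRNA was a small part of the zygote's polyadenylated RNA and a large part of the blastocyst's. In WT zygotes the 83 genes held 0.853% ± 0.0746 (SD, n = 5) of the summed FPKM, with embryos from 0.773% to 0.972%. In WT late 2-cell embryos they held 4.43% ± 0.993 (SD, n = 4), with embryos at 4.39%, 5.45%, 3.10% and 4.79%. In WT blastocysts they held 12.6% ± 2.20 (SD, n = 7), from 10.01% to 16.2%. No embryo of one stage reached the range of the next. The R442Q groups followed the same order, with 0.748% ± 0.0603 (SD, n = 6), 6.17% ± 1.51 (SD, n = 5) and 12.8% ± 1.41 (SD, n = 7). The tables of the stages were normalised separately, so these shares are a description with no test. Over the 43349 symbols listed at every stage they were 0.883%, 4.61% and 13.3% in WT embryos. A single embryo holds more cells at each stage, and a share does not show the amount of RNA per embryo or per cell.

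**Figure D1:**
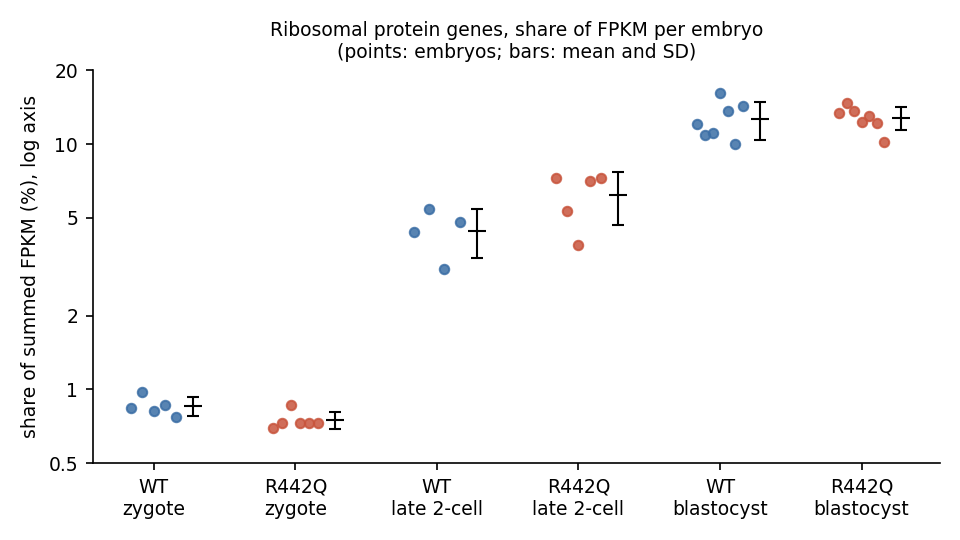
Share of the summed FPKM held by the ribosomal protein genes, on a log axis, in each embryo of the 6 groups (points), with the mean and SD of each group beside them. The zygotes sit between 0.694% and 0.972%, the late 2-cell embryos between 3.10% and 7.29% and the blastocysts between 10.01% and 16.2%.

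The genes were far less even in zygotes than later. In WT zygotes 79 of them had a mean FPKM of at least 1, and among these the upper quartile was 6.43 times the lower one, with a median of 32.3. In WT late 2-cell embryos (81 genes, median 291) the quartiles differed 2.51-fold, and in WT blastocysts (80 genes, median 1403) 2.61-fold. The 5 highest genes of each embryo held a mean 36.0% of the ribosomal protein FPKM in WT zygotes, 24.8% in late 2-cell embryos and 18.4% in blastocysts. The small subunit's summed FPKM, which includes Rps27l (below), was 1.03 times that of the large subunit in WT zygotes, 0.680 times in late 2-cell embryos and 0.751 times in blastocysts. The order of the genes also shifted: across genes, which are not independent replicates, Spearman's rho of the mean WT levels was 0.605 between zygote and late 2-cell (83 genes), 0.754 between late 2-cell and blastocyst (82 genes) and 0.441 between zygote and blastocyst (82 genes).

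Rps27l led in zygotes. This small-subunit gene, a copy of Rps27 known as a target of p53, had a mean FPKM of 916 ± 104 (SD, n = 5) and held 15.9% of the ribosomal protein FPKM of WT zygotes. Next came Rps15a (312 ± 38.5), Rpl17 (309 ± 70.6) and Rps24 (286 ± 23.5), whose ranges overlapped one another. The lowest were Rpl32l at 0 in every zygote, Rpl3l (0.094), Rpl12 (0.536) and Rpsa (0.946). Rpl12 lies at the base of the stalk and Rpsa encodes the small-subunit protein also known as the laminin receptor. In late 2-cell embryos Rpl41, which encodes the smallest ribosomal protein, was highest at 2927 ± 665 (SD, n = 4), above Rplp0 (1539 ± 71.9), Rplp1 (1330 ± 323) and Rps29 (1158 ± 395). Rpl41 was again highest in blastocysts (7181 ± 1756, n = 7), followed by Rps29 (5887 ± 1166) and Rpl38 (3738 ± 1107). The ranges of Rpl41 and Rps29 overlapped there. The lowest genes of WT late 2-cell embryos were Rpl32l (0), Rpl6l (0.67), Rpl3l (3.95) and Rpl5 (20.9), and those of WT blastocysts were Rpl3l (0), Rpl6l (0.433), Rpl10l (69.3) and Rpl5 (81.4). Rpl32l and Rpl6l are annotated as processed pseudogenes in GENCODE M21.

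**Figure D2:**
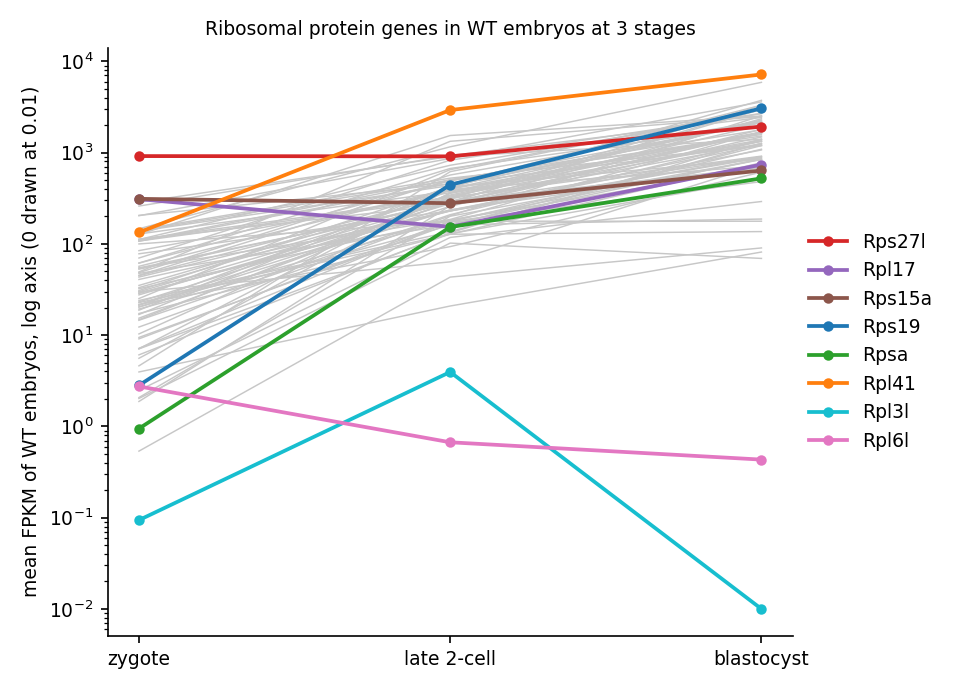
Mean FPKM of each ribosomal protein gene in WT embryos in zygotes, late 2-cell embryos and blastocysts, on a log axis, for the 82 genes listed at every stage (grey), with 8 named genes in colour. Most lines rise at both steps; Rps27l starts highest at 916 and stays at 910 in late 2-cell embryos, while Rpsa rises from 0.946 to 153 and Rps19 from 2.82 to 445.

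The change from zygote to late 2-cell was tested on counts in a model of all 20 embryos of both stages (edgeR quasi-likelihood test, Benjamini-Hochberg adjusted p under 0.05). In WT embryos 78 of the 82 genes tested were higher at the late 2-cell stage, where 36.2% of all 16199 genes tested were, and 1 was lower, where 25.0% of all were. The median log2 change of the 82 genes was 2.96, a 7.81-fold rise, beside 0.34 over all genes tested. Of the small-subunit genes 30 of 32 rose, with a median over all 32 of 2.98, and of the large-subunit genes 45 of 47, with a median of 2.90. The 3 stalk genes rose with a median of 3.48. The ratio of the summed FPKM of the small to the large subunit ran from 0.973 to 1.095 in WT zygotes and from 0.603 to 0.753 in WT late 2-cell embryos, without overlap. Rps27l, counted with the small subunit, alone held 15.9% of the ribosomal protein FPKM in WT zygotes and 2.82% in WT late 2-cell embryos. The difference between the subunits was not tested. For 76 of the 82 genes every late 2-cell WT embryo lay above every WT zygote, as for 31.2% of all genes tested. Without WT late 2-cell replicate 2, whose late 2-cell marker sum lay within the range of the zygotes, 74 of 82 were higher, where 32.2% of all genes were, with a median of 2.62. Each stage was deposited as a table of its own, so effects of stage and of table cannot be told apart.

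Rpsa rose from low levels in WT zygotes. Its values, as counts scaled to library size within each stage (CPM), were 0.601, 0.942, 1.32, 1.19 and 0.554 in the WT zygotes and 204, 244, 153 and 190 in the WT late 2-cell embryos. The CPM of different stages are thus not on a common scale, and log2 changes between stages come from the model of both stages. It was among the 78 members called higher. Rps19, a small-subunit gene mutated in Diamond-Blackfan anaemia, was at 0.481 to 1.67 CPM in WT zygotes and 103 to 276 CPM in WT late 2-cell embryos, and was also called higher. Rps27 was at 0.332 to 1.44 CPM in WT zygotes and 81.9 to 125 CPM in WT late 2-cell embryos. Rps27, Rpl12 and Rpl3l were too low in zygotes to be tested within that stage and entered the model through the late 2-cell embryos, so that they could pass the filter only where they were high. They are among the 78 called higher, and no fold change is given for them. Rpsa and Rps19 could not have passed the filter through the WT zygotes either, and their fold changes in WT embryos are not given. Rpsa, Rps19 and Rps27 did not overlap between the stages, and their zygote levels were close to 1 CPM.

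Other members rose from higher zygote levels. Rpl3, which takes part in forming the peptidyl transferase centre, was at 5.96 to 7.67 CPM in WT zygotes and 130 to 164 CPM in late 2-cell embryos. It had the smallest p of all members (log2 change 4.33 ± 0.25, SE, adjusted p = 3.0e-12). Rpl41 was at 32.2 to 53.6 CPM and then 585 to 980 CPM (4.08 ± 0.27, adjusted p = 2.0e-11). Rps26, another Diamond-Blackfan gene that sits at the mRNA exit of the small subunit, rose by 4.57 ± 0.30 (adjusted p = 2.2e-11). The stalk genes, whose proteins recruit and activate elongation factors, rose by 3.48 ± 0.23 for Rplp0, 4.71 ± 0.32 for Rplp1 and 2.00 ± 0.21 for Rplp2 (adjusted p = 2.6e-11, 3.7e-11 and 3.3e-08).

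In WT embryos 4 genes were not called higher. Rpl17, of the peptide exit tunnel, fell: it was at 187, 220, 145, 184 and 135 CPM in the WT zygotes and at 72.0, 136, 70.4 and 84.8 CPM in the WT late 2-cell embryos. The highest late 2-cell embryo, at 136 CPM, and the lowest zygote, at 135 CPM, had near values, each on the scale of its own stage. In the model of both stages the log2 change was -1.03 ± 0.28 (adjusted p = 0.0025). Rps27l stood at 235 to 308 CPM in WT zygotes and 192 to 320 CPM in WT late 2-cell embryos, with a log2 difference of -0.05 ± 0.24 (adjusted p = 0.86). Rps15a stood at 146 to 183 CPM and 105 to 172 CPM (-0.27 ± 0.27, adjusted p = 0.39). The pseudogene Rpl6l, at 1.06 to 2.72 and 0 to 1.19 CPM, was not called (adjusted p = 0.095). Rpl6l could pass the filter only through the zygotes, where it was high, so no fold change is given. Rps27l, Rps15a and Rpl17 were the 3 highest members of WT zygotes by FPKM.

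In R442Q embryos the same test called 78 of 82 genes higher, where 35.3% of all genes were, and 1 lower, where 29.8% were. The median log2 change was 3.77, a 13.6-fold rise, beside 0.22 over all genes tested. The members with the smallest p were Rpl41 (5.32 ± 0.26), Rps26 (5.85 ± 0.29), Rplp1 (6.16 ± 0.32), Rps19 (6.87 ± 0.38), Rpl3 (4.02 ± 0.22), Rplp0 (3.76 ± 0.22), Rpl6 (4.45 ± 0.26) and Rpl39 (5.88 ± 0.35), with adjusted p between 2.0e-13 and 2.7e-12. The gene called lower was Rpl6l, at 1.14 to 4.91 CPM in R442Q zygotes and 0 to 0.391 CPM in R442Q late 2-cell embryos. It could pass the filter only through the zygotes, where it was high, and no fold change is given. Of its 50-base stretches 76.4% occur in other annotated genes, and its estimated counts had decimals in all 11 zygotes. Rpl17 was not called in R442Q embryos (143 to 168 CPM in zygotes, 79.3 to 243 CPM at the late 2-cell stage, adjusted p = 0.97), nor was Rps27l (adjusted p = 0.12) or Rps15a (adjusted p = 0.097).

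Transcript length moved with these changes. The members are short, with a median effective length of 518.8 bases (deposited count over FPKM), against 1912 bases over all genes tested in late 2-cell embryos. Other genes under 500 bases had a median log2 stage change of 1.14 in WT and 1.74 in R442Q embryos, and other genes over 2000 bases had 0.20 and -0.22. With each library's trend on length removed, the median rise of the members was 2.40 in WT and 2.91 in R442Q embryos.

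Genes that work with the ribosomal proteins were read from fixed lists, against 36.2% of all genes tested that rose and 25.0% that fell in WT embryos. Of 8 tested ribosomal protein genes outside the rule, 7 rose in WT embryos and 0 fell, with a median log2 change of 3.17, among them Rps3a1 (3.13). Of 29 ribosome assembly genes 22 rose and 1 fell (median 2.19), such as Nop2, a ribosomal RNA methyltransferase (6.15), Ubtf, a factor of RNA polymerase I (5.21), and Fbl, the snoRNP methyltransferase fibrillarin (4.24). Among 19 other mRNAs that carry a TOP tract, 8 rose and 3 fell, with a median of 0.26. Pabpc1, the cytoplasmic poly(A) binding protein, rose by 5.77 and Eif3f, a subunit of initiation factor 3, by 3.24, while Btf3 fell by 1.47. Of 75 mitochondrial ribosomal protein genes 33 rose and 21 fell, with a median of 0.52.

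Some ribosomal proteins have a near copy encoded elsewhere, and the balance between the copies differed by stage. The values are FPKM, which are per length and can be compared between genes. Rps27l held 99.5% ± 0.324 (SD, n = 5) of the summed FPKM of Rps27l and Rps27 in WT zygotes, 59.4% ± 2.07 (n = 4) in WT late 2-cell embryos and 39.3% ± 4.59 (n = 7) in WT blastocysts. Rps27 itself went from 4.61 FPKM to 618 and 3014, while Rps27l was at 916, 910 and 1927. Rpl39l, best known from testis, held 68.7% ± 4.61 of the pair with Rpl39 in WT zygotes, 30.7% ± 11.3 in late 2-cell embryos and 21.3% ± 4.80 in blastocysts. In each of these pairs the WT zygotes lay above every WT embryo of the later stages.

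The other pairs behaved differently from these. Rpl10l, an autosomal retrocopy of the X-linked Rpl10 that is known from testis, held 1.41% of its pair in WT zygotes, 16.8% ± 2.89 (SD, n = 4) in WT late 2-cell embryos and 5.54% ± 2.81 (SD, n = 7) in WT blastocysts. Its mean FPKM was 2.02, 102 and 69.3. The WT late 2-cell embryos ran from 12.6% to 19.0%, against at most 10.4% in WT blastocysts. In R442Q embryos these stages overlapped, with 6.57% to 24.2% at the late 2-cell stage and 1.78% to 7.98% in blastocysts. Rpl3l, known from heart and skeletal muscle, was at a mean of 0.094 FPKM in WT zygotes, 3.95 in WT late 2-cell embryos, where Rpl3 was at 132, and 0 in WT blastocysts. Rps4l, annotated as a transcribed processed pseudogene, stood beside Rps4x at every stage, with 33.4% ± 7.15, 48.2% ± 13.7 and 55.6% ± 8.84 of the pair. Rps27l, Rpl39l and Rps4l share few 50-base stretches with other annotated genes (11.2%, 0.0% and 14.9%), and their counts were whole numbers in every zygote. Their partners Rps27, Rpl39 and Rps4x share 25.0%, 6.67% and 41.2%, and Rpl10 shares 33.5%. Counts with decimals, as where reads are divided among genes, were found for Rps27 in 9 of 9 late 2-cell embryos. They were found for Rps4x in 8 of 11 zygotes and for Rpl10 in all 11. The shares of these pairs depend on that division.

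**Figure D3:**
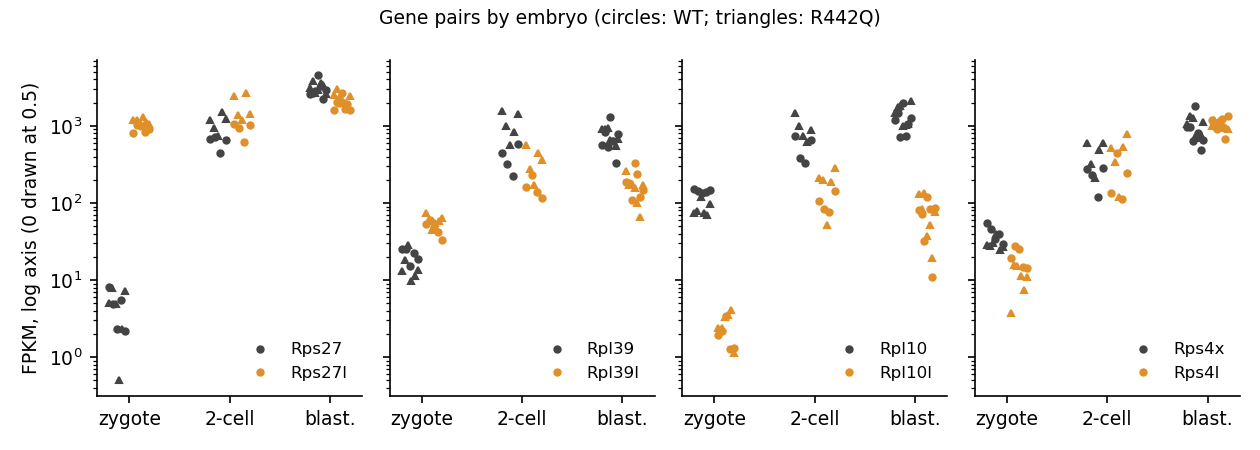
FPKM of 4 pairs of ribosomal protein genes in every zygote, late 2-cell embryo and blastocyst, on a log axis, with circles for WT and triangles for R442Q embryos. Rps27 rises from 4.61 to 3014 in the WT means while Rps27l goes from 916 to 1927, and Rpl10l is lowest in zygotes.

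The comparison of R442Q with WT zygotes asked how the checkpoint mutant changed the 1-cell embryo. A few members differed, in both directions, at about the rate of all genes. Rps29, Rpl10, Rpl11, Rps25, Rpl6, Rpl13 and Rps13 were lower in R442Q zygotes, and Rps27l, Rplp0, Rpsa and Rps3 were higher. These are 4 of 79 members higher, where 6.3% of all 12420 genes tested were, and 7 of 79 lower, where 6.92% of all were (edgeR, adjusted p under 0.05). The median log2 difference over the 79 members was -0.15, beside 0.01 over all genes. The share of summed FPKM overlapped between the genotypes, at 0.694% to 0.867% in R442Q and 0.773% to 0.972% in WT zygotes. Rpl12, Rpl3l, Rpl32l and Rps27 were too low to be tested.

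Rps29, a small-subunit zinc-binding protein (chr12:69157722-69159186), had the smallest p. It was at 24.6, 34.4, 22.4, 26.6 and 30.9 CPM in WT zygotes and at 8.44 to 20.7 CPM, with a median of 11.7, in the 6 R442Q zygotes. The groups did not overlap, and the level in R442Q zygotes was 2.19-fold lower (log2 difference -1.13 ± 0.23, adjusted p = 0.0040). Rpl10, a late-joining large-subunit protein needed for subunit joining (chrX:74270812-74273135), was at 87.9, 77.7, 78.4, 85.6 and 88.2 CPM in WT zygotes. In R442Q zygotes it was at 46.3 to 76.1 CPM, again without overlap, and 1.49-fold lower (-0.58 ± 0.14, adjusted p = 0.010). Rpl11, which with Rpl5 and 5S RNA binds MDM2 (chr4:136028265-136053428), was at 53.7 to 68.9 CPM in WT and 16.1 to 44.1 CPM in R442Q zygotes and was 1.81-fold lower (-0.86 ± 0.21, adjusted p = 0.012).

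Rps27l (chr9:66946086-66949516) was at 235, 289, 308, 254 and 277 CPM in WT zygotes and at 339 to 437 CPM in R442Q zygotes. All 6 R442Q embryos lay above all 5 WT embryos, with a 1.43-fold higher level (log2 difference 0.52 ± 0.11, adjusted p = 0.0045). Its share of the ribosomal protein FPKM was 15.9% in WT and 22.9% in R442Q zygotes. The stalk gene Rplp0 (chr5:115559467-115563727) was at 123 to 169 CPM in WT and 174 to 227 CPM in R442Q zygotes and was 1.41-fold higher (0.50 ± 0.12, adjusted p = 0.0098). Rpsa (chr9:120127689-120132369) was at 0.554 to 1.32 CPM in WT and 1.49 to 7.16 CPM in R442Q zygotes. It was among the 4 members called higher, from WT levels near 1 CPM. At these levels it could pass the filter on low counts only through the R442Q zygotes, where it was high, so no fold change is given. Besides these 6 genes, Rps19 did not overlap between the genotypes either (0.481 to 1.67 and 1.96 to 5.06 CPM) but was not called. Rps19 too could pass the filter only through the R442Q zygotes. Genes without overlap were 4 of 79 members higher, Rpsa and Rps19 included, against 4.04% of all genes, and 3 of 79 lower, against 4.67%. The other called members overlapped, such as Rps3 at 1.57 to 3.10 and 2.08 to 10.7 CPM (adjusted p = 0.044) and Rps13 at 7.81 to 15.5 and 4.30 to 8.59 CPM (adjusted p = 0.049).

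**Figure D4:**
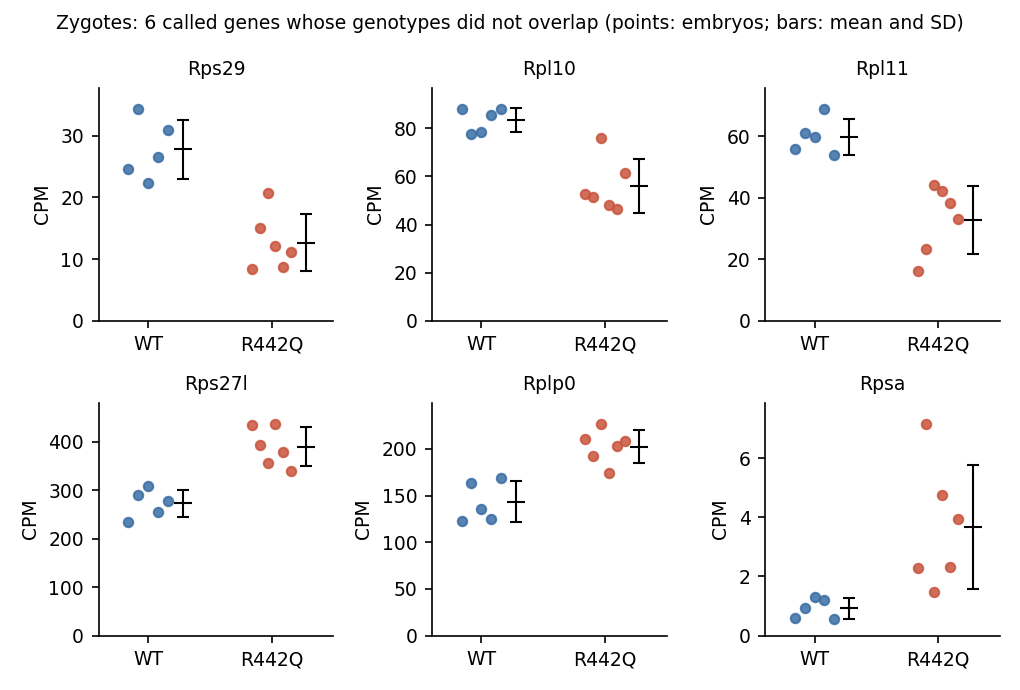
CPM of 6 ribosomal protein genes in each WT and R442Q zygote (points), with the mean and SD of each group. Rps29, Rpl10 and Rpl11 are lower in every R442Q zygote than in any WT zygote, and Rps27l, Rplp0 and Rpsa are higher.

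The zygote calls depended on single embryos and on the fit. Of 20 other settings, the call held in 19 for each of Rps29, Rpl10, Rpl11, Rps27l and Rplp0. It held in 18 for Rpsa, 13 for Rps25, 12 for Rpl13, 8 for Rpl6, and 6 each for Rps13 and Rps3. Without WT replicate 2 there were 6 calls, 3 in each direction, where 4.22% of all genes were higher and 4.66% lower. Without R442Q replicate 1 there were also 3 in each direction, where 4.4% and 5.22% of all genes were. Without WT replicate 4 there were 3 higher and 4 lower, where 5.45% and 5.69% of all genes were, and without R442Q replicate 3 there were 17 (4 higher and 13 lower, where 6.44% and 7.72% of all genes were). In the model that also holds the late 2-cell embryos 1 member was called, higher, as were 1.22% of all genes, and 0 were lower, where 0.451% of all were. Marker sums also differed between the genotypes: the 7 oocyte markers summed to 5320 to 7850 FPKM in WT and 3610 to 5820 in R442Q zygotes. The 11 listed cumulus markers summed to 17.5 to 20.9 and 11.5 to 17.4 FPKM, with 3 of them at 0 in all WT zygotes and 1 at a mean FPKM of at least 1 in either genotype. The 7 listed late 2-cell markers summed to 108 to 212 and 101 to 306 FPKM. Of the marker genes tested, 5 of 7 late 2-cell markers were higher in R442Q zygotes and 0 lower (median log2 difference 2.29), and 2 of 7 oocyte markers were lower and 0 higher (median -0.52). Of 2 cumulus markers tested 0 were called. The part of these markers in the result was not tested. Of the called genes, Rps29, Rpl10, Rpl11, Rps25, Rpl6, Rpl13, Rps13 and Rplp0 had estimated counts with decimals in all 11 zygotes, as where reads are divided among genes, and Rps27l, Rpsa and Rps3 had whole counts in all 11.

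Among genes around the ribosome, 5 of 29 assembly factors were lower and 1 was higher in R442Q zygotes, where 6.92% of all genes tested were lower and 6.3% higher. Sbds, a factor that frees the large subunit for translation (log2 difference -0.65 ± 0.12), Ncl, nucleolin (-0.79 ± 0.15), and Nop58, a core protein of box C/D snoRNPs (-0.89 ± 0.17), had adjusted p of 0.0019, 0.0024 and 0.0027. The higher one was Nip7 (0.43 ± 0.12, adjusted p = 0.030). Of 16 regulators of mTORC1 and TOP mRNAs, Myc (2.98 ± 0.57, adjusted p = 0.0028) and Tsc2, an inhibitor of mTORC1 (0.72 ± 0.14, adjusted p = 0.0029), were higher and Cnbp, which binds TOP mRNAs, was lower (-0.59 ± 0.14, adjusted p = 0.0095). Of 19 other TOP mRNAs, Btf3 was higher (0.44 ± 0.11) and Eif3e lower (-0.76 ± 0.13). Of 7 ribosomal protein genes outside the rule, Rpl7l1 was lower (-0.63 ± 0.18). Of 74 mitochondrial ribosomal protein genes 2 were higher and 11 lower, with a median of -0.25.

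In late 2-cell embryos the members were on the same side of WT almost without exception, and nearly none passed the test. 80 of the 81 members tested had a higher fitted level in R442Q embryos, where 7321 of all 13883 genes tested had. Their median log2 difference was 0.80, a 1.74-fold difference, beside 0.07 over all genes. The members were measured in the same 9 embryos and are not independent replicates. Between embryos of a group the median log2 level of the members varied with an SD of 0.57. Rpl39 alone was called, 1 of 81 higher where 1.22% of all genes were, and 0 of 81 were lower where 2.95% of all were. On simulated data this test recovered 1% of log2 changes of 1 and 25% of those of 2. A member that was not called can therefore still differ. At an unadjusted p under 0.05 there were 37 of 81 members (45.7%), and 21.0% of all genes. DESeq2 called 8 members higher and 0 lower, where it called 5.3% and 6.68% of all genes. The summed share was 3.10% to 5.45% in the 4 WT and 3.89% to 7.29% in the 5 R442Q embryos, with overlap.

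Rpl39, a small protein at the end of the peptide exit tunnel (chrX:37082520-37085402), was at 178, 140, 95.1 and 249 CPM in the WT embryos. In the R442Q embryos it was at 734, 431, 209, 356 and 644 CPM. Replicate 3 of the R442Q embryos lay inside the WT range and the other 4 above it, and the fitted level was 2.86-fold higher (log2 difference 1.52 ± 0.40, adjusted p = 0.049). The call held in 6 of 18 other settings, with adjusted p from 0.0026 to 0.55. Rpl41 (chr10:128548114-128549305) was the only member without overlap, as 4.39% of all genes were in this direction: 980, 797, 585 and 885 CPM in WT and 1390, 1300, 1220, 1620 and 1520 CPM in R442Q embryos. Its difference was 0.80 ± 0.27 (adjusted p = 0.10).

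The stalk genes showed the same layout. Rplp0 was at 1620, 1680, 1670 and 1880 CPM in WT embryos and at 3710, 3430, 1330, 3470 and 3680 CPM in R442Q embryos, so that 4 R442Q embryos were above and replicate 3 below every WT embryo (0.87 ± 0.32, adjusted p = 0.14). Rplp1 and Rplp2 differed by 0.96 ± 0.34 and 0.83 ± 0.30 (adjusted p = 0.12 for both). Rps27l was at 192 to 320 CPM in WT and 318 to 839 CPM in R442Q embryos (1.04 ± 0.35, adjusted p = 0.10), and its neighbour in order of p, Rpl39l, at 72.1 to 140 and 92.3 to 386 CPM (1.25 ± 0.39, adjusted p = 0.085). The single member with a lower fitted level was Rpl10a (-0.27), at 125 to 146 CPM in WT and 78.7 to 157 CPM in R442Q embryos.

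The count of calls turned on a single embryo. Without R442Q replicate 3, the embryo that stood apart, 16 of 81 members were called, all higher, where 2.85% of all genes were higher and 3.91% lower, and the median difference was 0.98. Without any other single embryo 0 were called, and the median ranged from 0.63 to 0.93, the latter without WT replicate 2. In the model that also holds the zygotes 22 of 82 members were called, all higher, where 5.83% of all genes were higher and 9.65% lower. Marker sums overlapped between the genotypes and reached higher values in R442Q embryos: oocyte markers summed to 1230 to 3150 FPKM in WT and 1670 to 6920 in R442Q embryos, and late 2-cell markers to 110 to 1630 and 797 to 2860. The 11 listed cumulus markers summed to 0.21 to 9.26 and 3.78 to 28.6 FPKM, with 4 of them at 0 in all WT and 3 in all R442Q embryos. None of the 7 oocyte, 7 late 2-cell and 2 cumulus markers tested was called, with median log2 differences of 0.70, 1.28 and 0.83, and their part in the result was not tested.

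The fitted differences moved with transcript length. Among other genes with an effective length under 500 bases (722 genes), the median log2 difference was 0.87 and 86.3% were above 0, with 28 called higher and 1 lower. Those of 500 to 1000 bases (1923 genes) had a median of 0.61, with 47 called higher and 9 lower, those of 1000 to 2000 bases 0.16, and those over 2000 bases -0.31. The members had medians of 0.81 in the first band (38 genes), 0.81 in the second (34 genes) and 0.63 in the third (9 genes). With each library's trend on length removed, the members' median was 0.10, 0 were called by edgeR and 1 had an unadjusted p under 0.05.

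**Figure D5:**
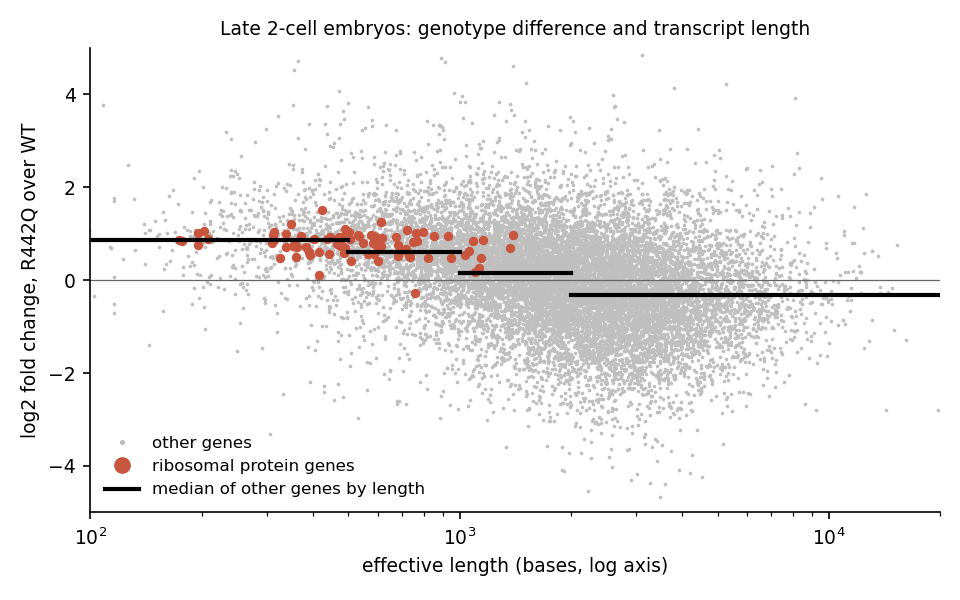
Log2 difference of R442Q from WT late 2-cell embryos against effective length in bases (log axis) for the ribosomal protein genes (red) and other genes tested (grey), with the median of the other genes in 4 length bands (black). The red points lie at the short end near the medians of 0.87 and 0.61 of the other short genes, and other genes beyond the axes (lengths of 100 to 20000, log2 of 5 either way) are not drawn.

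The lists around the ribosome differed among themselves here, where 1.22% of all genes tested were higher and 2.95% lower. They were not matched for transcript length, with which the differences moved at this stage. Of 29 assembly genes 0 were higher and 3 lower in R442Q late 2-cell embryos, with a median of -0.62. They were Pes1, of the complex that processes large-subunit RNA (-2.79 ± 0.48, adjusted p = 0.010), Ubtf (-2.14 ± 0.43, adjusted p = 0.017) and Heatr3 (-1.49 ± 0.30, adjusted p = 0.017). Of 19 other TOP mRNAs 0 were higher, and Eif4b, an initiation factor (-1.79 ± 0.37, adjusted p = 0.017), and Eef2, the translocation factor of elongation (-1.68 ± 0.38, adjusted p = 0.025), were lower. Of 8 ribosomal protein genes outside the rule and 18 regulators 0 were called, with medians of 0.73 and -0.04. Of 75 mitochondrial ribosomal protein genes 3 were higher and 0 lower (median 0.55).

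The difference between the stages was tested directly. The log2 difference of R442Q from WT was higher in late 2-cell embryos than in zygotes for 10 of 82 members, where it was for 3.07% of all genes, and lower for 0, where it was for 7.05% of all (edgeR, interaction in the model of 4 groups). The median interaction was 0.75, beside -0.16 over all genes. Rps29 led, with 2.10 ± 0.45 (adjusted p = 0.0048): its R442Q mean was 12.7 CPM against 27.8 in zygotes, and 482 against 230 CPM in late 2-cell embryos. It was followed by Rpl10 (1.40 ± 0.36), Rpl39 (1.72 ± 0.46), Rpl41 (1.24 ± 0.33), Rplp1 (1.45 ± 0.40), Rpl6 (1.29 ± 0.36), Rps26 (1.28 ± 0.37) and Rpl28 (1.22 ± 0.38), with adjusted p from 0.014 to 0.042. Rps25 was also called. Without R442Q late 2-cell replicate 3, 43 members were called, all higher, where 6.51% of all genes were higher and 8.11% lower. Without WT late 2-cell replicate 2, 19 were called, all higher, where 2.9% of all genes were higher and 4.37% lower. With the length trend removed 1 was called, higher, where 3.41% of all genes were higher and 3.09% lower, and the members' median was 0.31.

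In blastocysts, all grown with the inhibitor, no difference between the genotypes was detected among the members. By limma on log2(FPKM + 1), 0 of 80 members were higher, where 0.00885% of 11297 genes (1 gene) were, and 0 were lower, where 0.0% were. On simulated data this test recovered 38% of log2 changes of 1 and 83% of those of 2, and smaller changes were not simulated. At an unadjusted p under 0.05 there was 1 member, Rps24, against 836 of all genes (7.4%). The differences ran from -0.28 to 0.34 with a median of 0.11, beside -0.10 over all genes. They were above 0 for 66 of 80 members, where 4599 of all 11297 genes were. Between embryos of a group the median log2 level of the members varied with an SD of 0.258. Rps24 was at 1060 to 2090 FPKM in WT blastocysts, with a median of 1310, and at 1440 to 2140 in R442Q blastocysts (log2 difference 0.34, unadjusted p = 0.046). Rpl24 (0.34) and Rpl3 (-0.28) were also among the members with the smallest p. Rpl3 was at 1050 to 1880 FPKM in WT and 877 to 1290 FPKM in R442Q blastocysts. These genes overlapped between the genotypes. Across the 82 genes the mean levels of the genotypes had a Spearman's rho of 0.991.

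Markers of both blastocyst lineages were present in each genotype. Summed FPKM of 6 trophectoderm markers was 3210 to 24300 in WT and 1250 to 12900 in R442Q blastocysts, and that of 6 inner cell mass markers 126 to 563 and 95.6 to 309. Of 29 assembly genes, 19 other TOP mRNAs, 18 regulators and 75 mitochondrial ribosomal protein genes 0 were called in blastocysts, as against 1 of 11297 genes in all, with medians of -0.33, -0.14, -0.29 and 0.04. Rows named as ribosomal protein pseudogenes were listed only for blastocysts, where they summed to a mean 8.54% of the members' FPKM in WT embryos. Over the members, a median 20.8% of 50-base stretches occurred in another annotated gene, and over 50% did for 6 of them, among them Rpl36, Rplp1 and Rpl19, so that their levels depend on how shared reads were divided.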

How the data were processed

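The members and all gene lists were chosen with earlier results of these data known. The labels state SMART-seq2, Tn5 fragmentation, Nextera libraries and a HiSeq X-10. Per the submitters' processing notes RSEM and the build mm10 were used; version, strand and annotation are not given in the sources used here. The authors deposited estimated counts per symbol for zygotes and late 2-cell embryos, and FPKM for all stages, normalised to transcript length and library size. Rows with symbols containing a hyphen were listed for blastocysts only.

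Counts were rounded and tested in R 4.3.3 with edgeR 4.0.16 (filterByExpr at a minimum count of 10, TMM scaling, quasi-likelihood test), for each stage alone and in a model of 4 groups for stage and interaction. CPM are scaled by TMM within a stage. Blastocysts were tested with limma 3.58.1 (variance trend, log2(FPKM + 1), FPKM of at least 1 in at least 7 embryos), a scale that understates changes of low genes. P-values were adjusted by Benjamini-Hochberg over all genes tested, with a threshold of 0.05. The tests were tried on simulated data, with 100 genes changed at each size. Log2 changes of 1 and 2 were recovered at 70% and 100% for genotype in zygotes, and at 1% and 25% in late 2-cell embryos. The shares were 18% and 64% for stage in WT embryos, and 38% and 83% for genotype in blastocysts. Alternatives were other scaling, filters, DESeq2 1.42.0, a replicate block, removal of each library's trend on length (lowess, span 0.3) and leaving out each embryo. Positions and shared stretches of 50 bases come from GENCODE M21, promoters from RefSeq.

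Genes named were, in each test, up to 8 members in each direction by p among those called, or the 4 with the smallest p. To these were added the 4 highest and 4 lowest members per stage by mean WT FPKM, the near copies, the stalk genes and Rpsa, and up to 3 called genes per direction from each list. Genes without overlap between genotypes, the single member below 0 in late 2-cell embryos and genes of the lists in the stage test were named after their values were seen. A few genes that the rule names are not reported here.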

Additional observations from a re-analysis of the deposited data

Results flagged for a closer look

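In 2 of 38 groups of embryos tested, 1 embryo lay farther from the rest than Dixon's 95% limit allows; chance gives about 1 in 20 groups. The share of summed FPKM from ribosomal protein genes was 0.867% in R442Q zygote replicate 3, the highest of its group, where the other 5 were at 0.694% to 0.732%. Rpl3 was at 877 FPKM in R442Q blastocyst replicate 7, the lowest of its group, and that embryo also had the fewest symbols at FPKM 1 or more (8189) of all blastocysts.

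For 8 named members, of 10 higher and 0 lower among 82 where 3.07% and 7.05% of all genes were, the genotype effect of late 2-cell embryos differed from that of zygotes by the interaction test, as log2 differences of 2.10 for Rps29, 1.40 for Rpl10, 1.72 for Rpl39, 1.24 for Rpl41, 1.45 for Rplp1, 1.29 for Rpl6, 1.28 for Rps26 and 1.22 for Rpl28. Of these, Rps29, Rpl10 and Rpl6 were lower in R442Q zygotes by the test within that stage. With the length trend removed, 1 of the 82 members was called, higher, where 3.41% of all genes were higher and 3.09% lower.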

How the results depend on the processing

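Percentages in parentheses are the shares of all genes called higher and lower in the same fit. The median change from zygote to late 2-cell stayed above 0 under the alternatives tried, and 75 to 80 members were called in WT (31.6% to 36%, 22.4% to 28.4%) and 79 to 81 in R442Q embryos (33.4% to 35.9%, 28.9% to 31.3%) when single embryos were left out. With the length trend removed 73 members were higher and 4 lower in WT embryos (32.1%, 29.8%), and 78 and 3 in R442Q embryos (34.3%, 30.1%). With the title block as well they were 71 and 3 (29.6%, 28.7%), and 76 and 3 (30.1%, 29.6%). The 11 zygote calls (6.3%, 6.92%) became 17, 3 higher and 14 lower, with limma on FPKM (3.47%, 10.4%), 1 in a model of both stages (1.22%, 0.451%), and 6 to 17 with an embryo left out (4.22% to 6.44%, 4.66% to 7.72%). The single late 2-cell call (1.22%, 2.95%) became 8 with DESeq2 (5.3%, 6.68%), 22 in a model of both stages (5.83%, 9.65%), 0 with the length trend removed (0.821%, 1.25%) and 0 to 16 with an embryo left out (0.157% to 2.85%, 0.81% to 3.91%). The 10 interaction calls (3.07%, 7.05%) became 16 with RLE size factors (4.36%, 5.66%), 29 with DESeq2 (7.01%, 8.09%), 1 with the length trend removed (3.41%, 3.09%) and 6 to 43 with an embryo left out (2.29% to 6.51%, 4.16% to 8.11%). In blastocysts 0 were called under every alternative run. Embryos with the same title number did not deviate together in every pair (correlations of -0.057 to 0.062 in zygotes, -0.144 to 0.206 in late 2-cell embryos and -0.168 to 0.204 in blastocysts), nor did those with the same description number (-0.072 to 0.041 in zygotes, -0.144 to -0.059 in late 2-cell embryos), so the numbers were not taken as pairs. With a replicate block by title or by description number, the calls were 6 (4.57%, 5.23%) and 5 (3.57%, 4.51%) in zygotes, 0 (0.0576%, 0.36%) and 0 (0%, 0%) in late 2-cell embryos, and 4 (1.69%, 5.01%) and 3 (1.37%, 4.54%) for the interaction. With the title block and the length trend removed they were 7 (4.94%, 4.89%), 0 (0.194%, 0.187%) and 0 (1.65%, 1.75%). RLE moved the median interaction of all genes from -0.16 to -0.01. The cause of these changes was not tested. The median of the members with the length trend removed, alone and with the title block, was 0.10 and -0.03 for genotype in late 2-cell embryos, 2.40 and 2.33 for stage in WT, 2.91 and 2.79 for stage in R442Q, and 0.31 and 0.24 for the interaction.

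Counts limit genes near 1 CPM such as Rpsa and Rps27 in zygotes. For blastocysts the depth is unknown, and each library is 1 embryo.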

Other observations

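Mitochondrial ribosomal protein genes, which build the separate ribosome of mitochondria, took up 0.458% of the summed FPKM in WT zygotes, 0.613% in WT late 2-cell embryos and 1.16% in WT blastocysts. Those means lie closer together than the 0.853%, 4.43% and 12.6% of the cytoplasmic set. In R442Q embryos they were 0.380%, 0.737% and 1.17%.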
